A study of Homo sapiens with 60 samples.

Results

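The genes described here are 10 enzymes of sphingolipid metabolism, FA2H, SGPP1, SGPP2, SPHK1, SPHK2, SGPL1, DEGS1, UGCG, CERS2 and SPTLC1, of 60675 gene identifiers in the count table. They were chosen by name, and 2 measured patterns in these same libraries led to the choice: a higher FA2H level at the high dose of Zizyphi Semen, and a higher SGPP2 level in extract libraries than in vehicle libraries. Those patterns are therefore given as descriptions without a test. RNA-seq was run on the human lung carcinoma line A549, collected 24 h after exposure to vehicle or to 1 of 8 herbal extracts, in 60 libraries of 25 groups. The vehicle group had 3 libraries, with 0.1% DMSO in the labels and 2% in the design text. Soshiho-tang (water extract) had 2 libraries at each of 500, 100 and 20 µg/mL, here called high, medium and low. At the same doses, 3 libraries each were made for Yijin-tang (also a water extract) and for 4 ethanol extracts, Zizyphi Semen, Longan Arillus, Schisandrae Fructus and Liriopis seu Ophiopogonis Tuber. A further pair of ethanol extracts had 1 library per dose and no replicate, so they were not tested: Polygalae Radix was used at 380, 76 and 15.2 µg/mL, and Aucklandiae Radix was used at 370, 74 and 14.8 µg/mL. The first element of each library name in the labels, here called its set, was C1 for vehicle, 8 for Soshiho-tang and Yijin-tang, 9 for Schisandrae Fructus and Liriopis seu Ophiopogonis Tuber, 10 for Zizyphi Semen and Longan Arillus, and 11 for the other two; the labels do not say what it stands for. Vehicle libraries were in set C1 alone, so a difference between an extract and vehicle cannot be told apart from a difference between sets. Tests were therefore made between doses of an extract and between the 2 extracts of a set. Low doses were also compared between sets, where extracts and sets cannot be told apart.

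Sphingolipids are membrane lipids built on a sphingoid base, and ceramide is the hub of their metabolism. Serine palmitoyltransferase, of which SPTLC1 is a subunit, condenses serine with a fatty acyl group, ceramide synthases such as CERS2 add a second acyl chain, and the desaturase DEGS1 turns dihydroceramide into ceramide. FA2H hydroxylates the fatty acid that goes into ceramide, and UGCG adds glucose to ceramide as the entry step to most glycosphingolipids. Sphingosine released from ceramide is phosphorylated by the kinases SPHK1 and SPHK2 to the signalling lipid sphingosine 1-phosphate, which the phosphatases SGPP1 and SGPP2 return to sphingosine and the lyase SGPL1 cleaves irreversibly.

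FA2H and SGPP2 are the members whose levels moved most between replicated groups, so the sequences upstream of their starts are shown. They are RefSeq promoter sequences on GRCh38.p14, the first 220 of the 250 bases before an annotated start, read 5′ to 3′ on the gene's strand. Windows were found for 8 of the 10 members (13 windows; SGPP1 and CERS2 had none), and SGPP2 has 2 annotated starts. Capitals mark matches to the motifs searched on both strands: GGG, any 2 bases and TTTCC (NF-kB), TGANTCA (AP-1, whose letters read the same on both strands), GCGTG (AHR core), CACGTG (E-box) and TGATGNAAT (CARE).
SGPP2, first start, chr2:222423738-222423957, plus strand: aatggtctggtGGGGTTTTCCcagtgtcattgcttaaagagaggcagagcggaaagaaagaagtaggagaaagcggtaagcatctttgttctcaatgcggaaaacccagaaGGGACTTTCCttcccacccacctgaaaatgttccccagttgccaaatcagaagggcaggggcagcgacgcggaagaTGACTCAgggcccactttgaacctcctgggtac
SGPP2, second start, chr2:222424293-222424512, plus strand: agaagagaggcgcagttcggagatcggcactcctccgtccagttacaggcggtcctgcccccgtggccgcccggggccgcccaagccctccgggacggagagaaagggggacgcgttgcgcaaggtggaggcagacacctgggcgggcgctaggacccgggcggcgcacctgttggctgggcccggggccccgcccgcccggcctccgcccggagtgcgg
FA2H, chr16:74774851-74775070, minus strand: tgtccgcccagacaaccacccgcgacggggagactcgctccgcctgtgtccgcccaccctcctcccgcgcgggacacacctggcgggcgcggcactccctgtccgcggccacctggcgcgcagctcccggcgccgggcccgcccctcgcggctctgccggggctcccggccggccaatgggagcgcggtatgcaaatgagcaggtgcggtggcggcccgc
The window of the first SGPP2 start held GGGGTTTTCC at -239, GGGACTTTCC at -139 and TGACTCA at -63 relative to the start. The second SGPP2 window and the FA2H window held none of the 5 motifs in these 220 bases. Of 35116 windows of all genes, 1.51% held the NF-kB letters, 5.98% the AP-1 letters, 29.1% GCGTG, 5.4% CACGTG and 0.783% TGATGNAAT. The first SGPP2 window was 51.8% G and C, against 75.5% in the second and 77.7% in that of FA2H. Among the other members, an AP-1 match was found in 1 of the SPHK1 windows, at -71, and GCGTG in windows of SPHK1, SPHK2, SGPL1, DEGS1 and UGCG. These matches describe letters and show no binding.

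Library totals ran from 18.003 to 33.832 M counts, with a median of 23.897 M. Values below are CPM, a gene's count relative to its library total (counts in units of 1 M), scaled by TMM factors, which correct for composition. Epithelial and A549 markers summed to 17200 to 17560 CPM in vehicle, against 35.24 to 36.42 CPM for 8 fibroblast, 14.96 to 16.78 for 8 leukocyte and 0.4205 to 0.5147 for 6 endothelial markers. The sums of myelinating glia markers (7 genes, 105.5 to 107.8 CPM) and keratinocyte markers (7 genes, 26.15 to 28.4 CPM, with LORICRIN at 0 in every library) are given because both cell types are known for FA2H. A pair of libraries stood apart from their group mates, Longan Arillus low replicate 3 and Soshiho-tang medium replicate 3, and the common dispersion was 0.0173 with them and 0.00244 when both were left out. The members show this directly. SPTLC1 was at 8.34 CPM in Longan Arillus low replicate 3, against 47.8 and 50.1 CPM in replicates 1 and 2, and CERS2 was at 81.0 CPM against 184 and 181 CPM. In the opposite direction, SGPP1 was at 72.8 CPM against 37.2 and 35.7 CPM, and SPHK1 at 12.5 CPM against 5.05 and 4.97 CPM. Soshiho-tang medium replicate 3 departed the same way for SPTLC1 (34.3 against 52.6 CPM in replicate 2) and SPHK1 (8.39 against 4.09 CPM), but not for CERS2 (176 against 178 CPM). FA2H and UGCG were the members least displaced in Longan Arillus low replicate 3. By chi-square per degree of freedom of the counts, Longan Arillus low replicate 3 was at 337.8 and 325.8 from replicates 1 and 2, which were at 3.575 from each other, and the 2 Soshiho-tang medium libraries were at 138.5. Tests below are from the fit of all 54 replicated libraries unless the fit of the 52 that remain without both is named, and counts of called members are given from both.

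**Figure D1:**
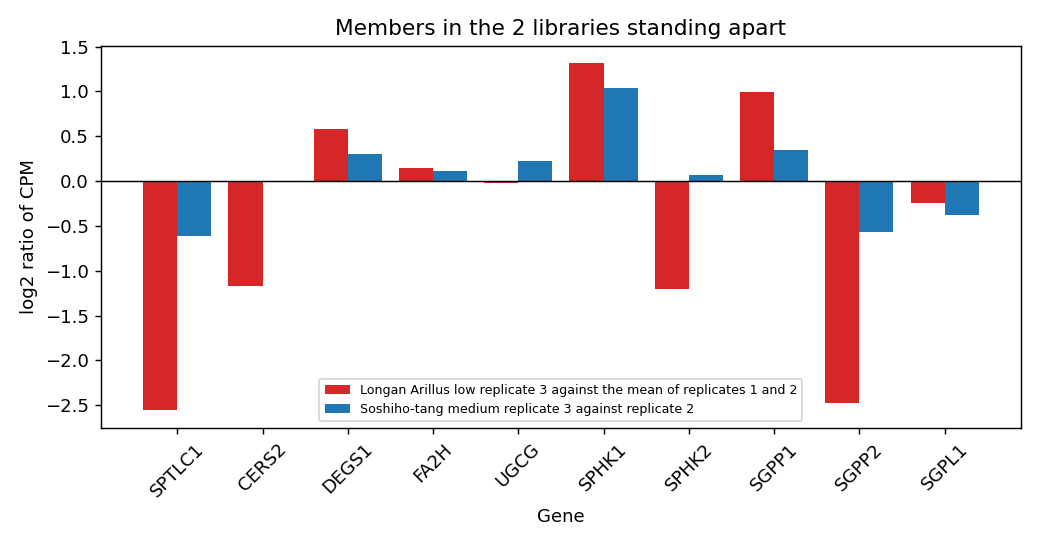
Log2 ratio of CPM of each member in Longan Arillus low replicate 3 to the mean of replicates 1 and 2 (red), and in Soshiho-tang medium replicate 3 to replicate 2 (blue). SPTLC1 and SGPP2 lie lowest in the first library, at -2.56 and -2.47, and SPHK1 highest in both, at 1.31 and 1.03.

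In vehicle, the members were ordered by level per transcript length, as CPM per kb of the median GENCODE 29 coding transcript (n = 3, mean ± SD). CERS2, the synthase of very long chain ceramides, was highest at 74.6 ± 0.683, followed by DEGS1 at 53.2 ± 2.45 and SPTLC1 at 36.3 ± 1.12, so the 3 genes of the ceramide route led the list. The lyase SGPL1 was at 17.3 ± 0.395, SGPP1 at 11.6 ± 0.521 and FA2H at 8.68 ± 0.476. SPHK2 was at 7.36 ± 0.391, UGCG at 5.41 ± 0.16 and SPHK1 at 2.41 ± 0.224. SGPP2 was lowest at 0.294 ± 0.0234, so the 2 phosphatases of sphingosine 1-phosphate lay far apart in level. With these median lengths held fixed, no pair of neighbours in this order overlapped in its 3 libraries. Lengths differ within a gene, from 1394 to 3085 bp over 7 coding transcripts of SPHK2, so the order of some members depends on the length taken. SGPP2 rested on 26 to 35 counts per vehicle library and SPHK1 on 117 to 153, so their values carry more counting error than the rest.

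**Figure D2:**
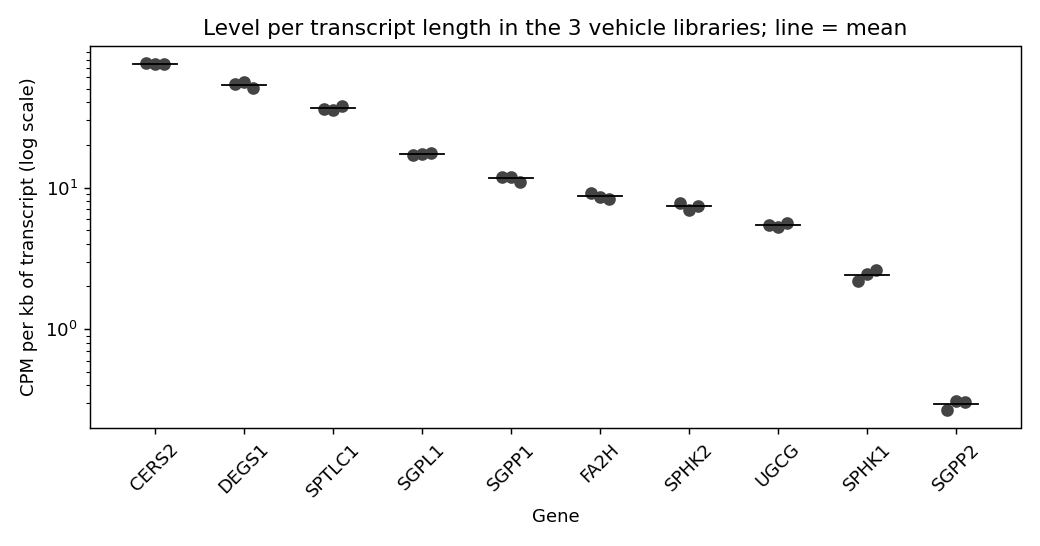
Level of each member in the 3 vehicle libraries as CPM per kb of transcript on a log axis, with points for libraries and a line for the mean. The order runs from CERS2 at 74.6 to SGPP2 at 0.294.

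FA2H, fatty acid 2-hydroxylase (ENSG00000103089, chromosome 16, 74712955 to 74774831, minus strand), was near the vehicle level in most groups and departed from it at 4 high doses. Vehicle libraries had 22.3, 20.8 and 20.0 CPM. At the high dose of Zizyphi Semen the values were 26.0, 27.2 and 28.9 CPM, at the medium dose 19.8, 21.9 and 22.4 CPM, and at the low dose 20.1, 20.9 and 21.7 CPM. The high-dose libraries did not overlap with those of the lower doses or vehicle, whereas medium, low and vehicle overlapped. The log2 fold change of high against low was 0.39 ± 0.0679 (SE), a description because this contrast chose the gene. In that contrast 0.028% of all genes were called, and 1.15% over 52 libraries, from which nothing is read for FA2H. The keratinocyte marker sum was 29.14 to 31.14 CPM at the Zizyphi Semen high dose and 28.17 to 29.38 CPM at the low dose, the leukocyte sum 21.66 to 22.53 and 16.72 to 19.56 CPM, and the myelinating glia sum 105.4 to 112.1 and 105.7 to 107.8 CPM. The leukocyte sums did not overlap, and their part in the FA2H value was not tested.

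Soshiho-tang was the other replicated extract with high FA2H values. Its high dose had 27.3 and 27.5 CPM, its low dose 23.9 and 22.3 CPM and its medium dose 21.4 and 23.1 CPM. Both high-dose libraries lay above all others of the extract. The log2 fold change of high against low was 0.25 ± 0.0829, with an edgeR adjusted p of 0.167 over 54 libraries. Over 52 libraries FA2H rose by 0.25 ± 0.0761 (adjusted p = 0.0295), so the call depends on the 2 libraries, neither of which is in this contrast. Against the medium dose, a contrast added after the values were seen, FA2H rose by 0.31 ± 0.0829 (adjusted p = 0.0172, with 8.54% of all genes called), and by 0.36 ± 0.0935 (adjusted p = 0.0153, with 4.04% called) over 52 libraries, in which the medium dose has 1 library. Leaving out 1 library of this contrast at a time gave adjusted p of 0.0408 to 0.117. The fibroblast marker sum was 27.62 to 30.77 CPM at the Soshiho-tang high dose and 37.3 to 37.95 CPM at the low dose, and the leukocyte sum 18.97 to 19.04 and 16.61 to 18.45 CPM; their part in the FA2H value was not tested.

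In the other replicated extracts, FA2H moved less. Yijin-tang high had 22.2, 22.4 and 23.7 CPM against 18.7, 21.7 and 23.2 CPM at the low dose, and these overlapped (log2 fold change 0.10 ± 0.0683, adjusted p = 1). Longan Arillus high had 20.7, 21.1 and 20.4 CPM against 21.5, 23.3 and 24.8 CPM at the low dose, which lay higher (-0.16 ± 0.0682, adjusted p = 0.0884). Liriopis seu Ophiopogonis Tuber and Schisandrae Fructus differed by 0.09 ± 0.0685 and 0.09 ± 0.0678 between high and low dose (adjusted p = 1 for both). The change in Yijin-tang minus that in Soshiho-tang was -0.15 ± 0.107 (adjusted p = 1; 0.579 over 52 libraries), so a difference in dose response between these extracts was not shown. At the high dose itself, Yijin-tang minus Soshiho-tang was -0.27 ± 0.0755 (adjusted p = 0.0669), and over 52 libraries FA2H was lower in Yijin-tang by the same -0.27 ± 0.0699 (adjusted p = 0.00856).

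The widest FA2H values came from the single libraries of set 11. Polygalae Radix had 20.7, 19.2 and 10.4 CPM at its low, medium and high dose, and the 95% exact Clopper-Pearson interval at the high dose was 9.23 to 11.7 CPM. Aucklandiae Radix had 21.1, 22.1 and 37.3 CPM, with an interval of 34.8 to 39.9 CPM at the high dose. The high doses of the 2 extracts thus lay on opposite sides of vehicle, outside its range. These intervals cover counting error only. Over all groups other than these 4 high doses, the 21 group means without the 2 libraries standing apart were 19.2 to 23.1 CPM, and the 51 libraries 18.7 to 23.9 CPM. With those 2, the highest group mean was 23.2 CPM and the highest library 24.8 CPM, both in Longan Arillus low. The order of group means was Aucklandiae Radix high, then Soshiho-tang high (27.4 CPM) and Zizyphi Semen high (27.4 CPM), which overlapped each other, then the 21 groups, which did not separate from their neighbours, and last Polygalae Radix high.

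**Figure D3:**
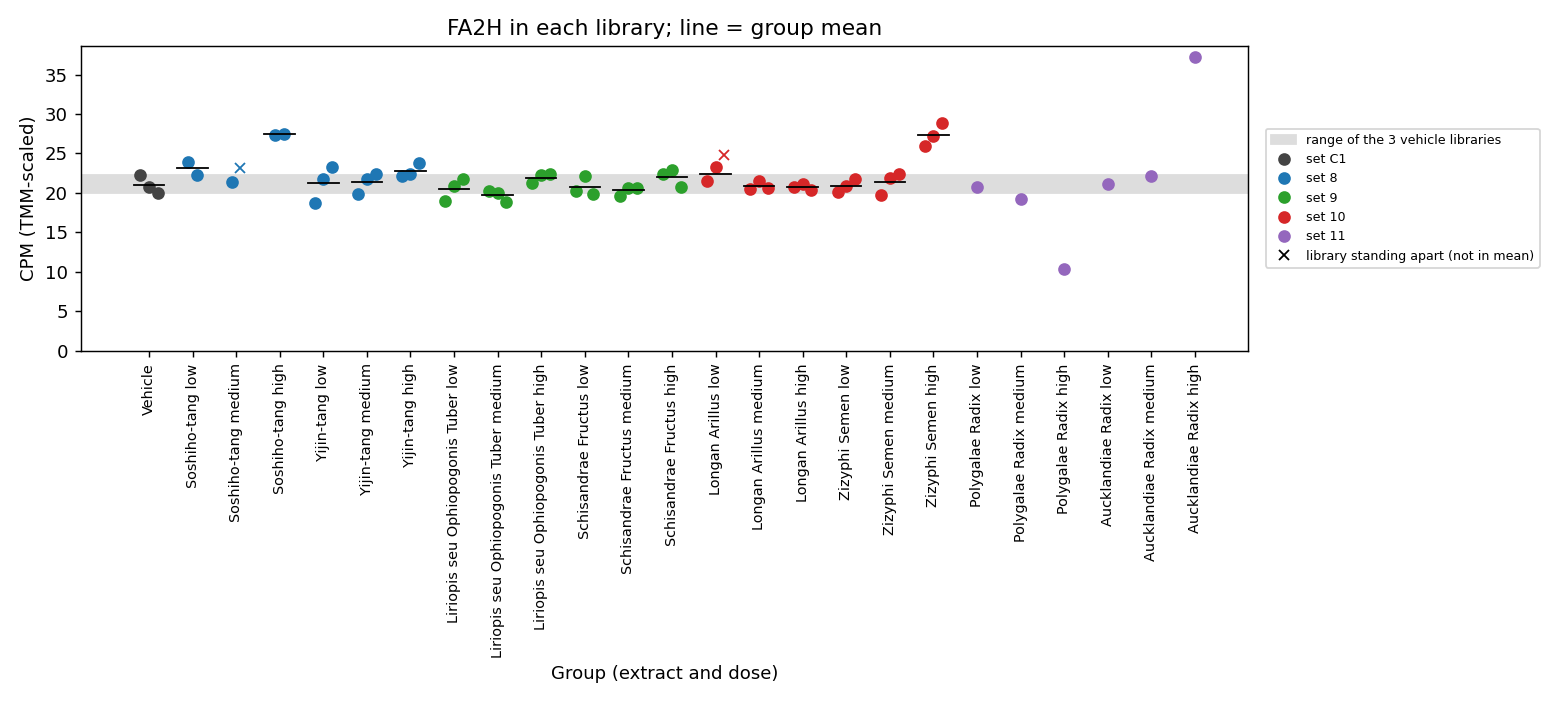
FA2H level (CPM) in each of 60 libraries by extract and dose, coloured by library set, with a line for the mean of groups with at least 2 libraries and a grey band for the vehicle range of 20.0 to 22.3 CPM. The libraries at the high doses of Soshiho-tang, Zizyphi Semen and Aucklandiae Radix lie above the band, at 26.0 to 37.3 CPM, and that of Polygalae Radix below it, at 10.4 CPM.

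SGPP2, sphingosine 1-phosphate phosphatase 2 (ENSG00000163082, chromosome 2, 222424517 to 222560948, plus strand), was higher in the extract libraries than in vehicle at every dose. Vehicle had 0.892, 1.04 and 1.02 CPM. Of 57 extract libraries, 55 lay above the highest vehicle library. The exceptions were Longan Arillus low replicate 3 (0.507 CPM) and Soshiho-tang medium replicate 3 (0.969 CPM), the pair that stood apart. Across the 18 replicated extract groups, the log2 fold change against the same 3 vehicle libraries was 0.30 to 1.46 with a mean of 1.05, and 0.55 to 1.51 with a mean of 1.08 over 52 libraries. This is a description, since the shift chose the gene. SGPP2 overlaps NANOGP2 and GAPDHP49 on the opposite strand and RNU6-619P on its own, so reads of these may be included.

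SGPP2 levels differed between library sets, while doses overlapped in some extracts and not in others. Without the 2 libraries, set 8 had 1.44 to 1.95 CPM (14 libraries, median 1.66), set 9 had 1.70 to 2.82 (18 libraries, median 2.22), set 10 had 1.96 to 3.18 (17 libraries, median 2.62) and set 11 had 1.99 to 3.70 (6 libraries, median 2.55). Sets 8 and 10 did not overlap, while set 9 overlapped with both. The low doses alone gave the same order: set 10 minus set 8 was 0.50 ± 0.193 on the log2 scale (0.71 ± 0.123 over 52 libraries), set 10 minus set 9 was 0.15 ± 0.177 (0.36 ± 0.113), and set 9 minus set 8 was 0.35 ± 0.194 (0.35 ± 0.122). These are descriptions, and the extracts and the sets cannot be told apart in them. Within extracts, high against low ran from -0.28 to 0.10 over the 6 replicated extracts in the fit of 52 libraries, with SE of 0.15 to 0.208. Changes of that size or smaller could not be separated from the spread at these counts. In Zizyphi Semen the doses overlapped, with 2.84, 2.36 and 2.34 CPM at the high, 2.99, 2.17 and 2.18 at the medium and 3.18, 2.75 and 2.24 at the low dose. Liriopis seu Ophiopogonis Tuber had 2.23 to 2.56 CPM at the medium and 1.91 to 2.10 CPM at the low dose, without overlap (0.27 ± 0.161, adjusted p = 1 over 52 libraries). Schisandrae Fructus had 1.70 to 2.21 CPM at the high and 2.22 to 2.40 CPM at the medium dose, without overlap (-0.26 ± 0.153, adjusted p = 0.681). Without the 2 libraries, Longan Arillus medium (2.06 to 2.62 CPM) lay below low (2.69 to 2.94 CPM; -0.26 ± 0.164, adjusted p = 0.799), and the 1 remaining Soshiho-tang medium library (1.44 CPM) below both other doses. None of the SGPP2 contrasts between doses of a replicated extract was called by edgeR in either fit. The highest library was Polygalae Radix high, at 3.70 CPM (exact 95% interval 3.02 to 4.48). Its low dose was at 2.68 CPM (2.05 to 3.45), and those intervals overlapped. Unscaled, the high dose had 104 counts in a total of 22.681 M and the low dose 60 in 22.696 M. The overlap thus depends on the TMM factor, which the intervals take as fixed.

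**Figure D4:**
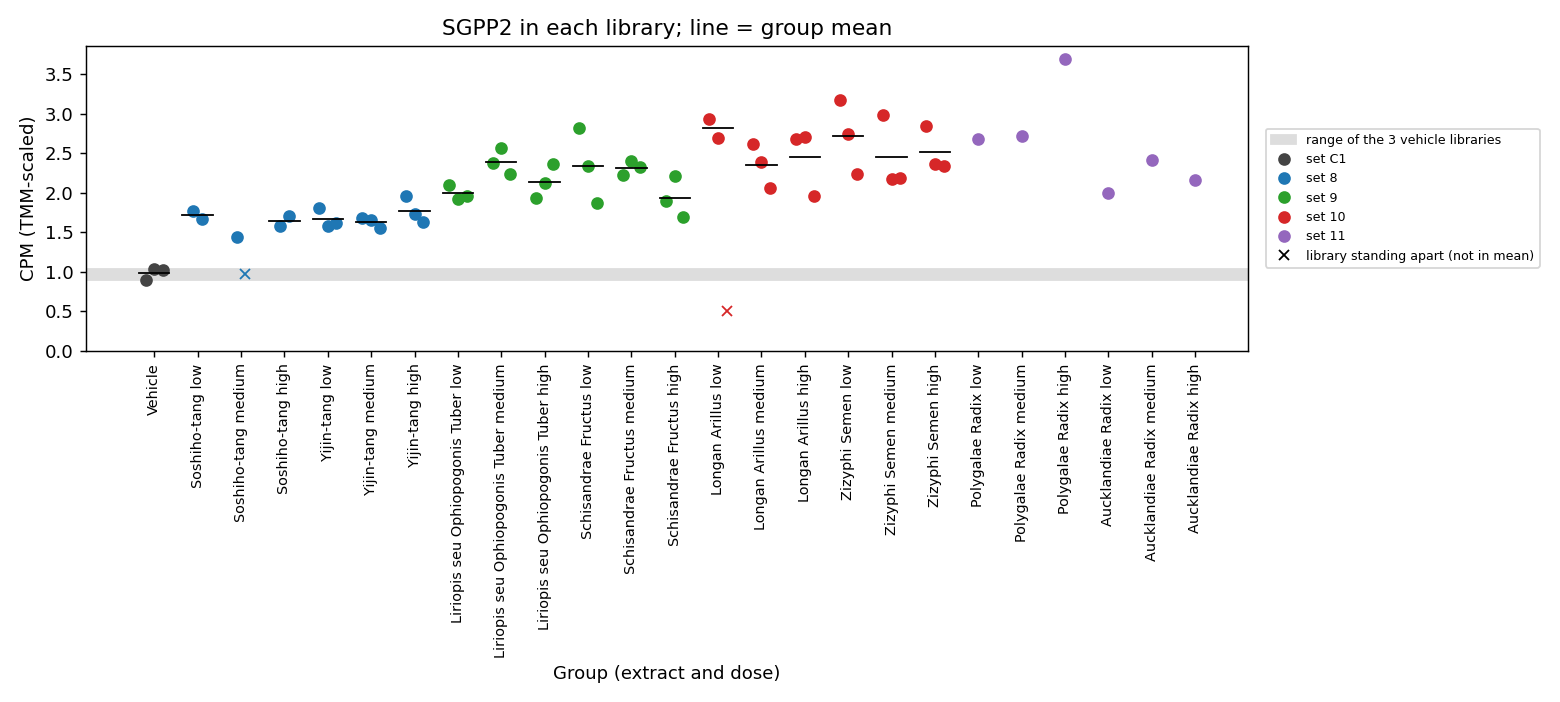
SGPP2 level (CPM) in each of 60 libraries by extract and dose, coloured by library set, with a line for the mean of groups with at least 2 libraries and a grey band for the vehicle range of 0.892 to 1.04 CPM. Of the 57 extract libraries, 55 lie above the band, set 8 lowest among them, and the crosses are the 2 libraries standing apart.

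Of the kinases, SPHK1 (chromosome 17, 76376584 to 76387860, plus strand) was low in the replicated groups and higher in both set 11 high doses. Vehicle had 4.02, 4.53 and 4.84 CPM, and the 52 libraries 3.42 to 5.42 CPM. Its SD on the log2 scale over those was 0.111 between group means and 0.145 within groups. Some doses did not overlap. Longan Arillus low without replicate 3 (4.97 and 5.05 CPM) lay above medium (3.53 to 4.03) and high (4.35 to 4.67). Liriopis seu Ophiopogonis Tuber high (3.70 to 4.17 CPM) lay below medium (4.47 to 5.42). None of these differences was called by edgeR over 52 libraries. Polygalae Radix high had 10.2 CPM (exact 95% interval 9.09 to 11.5) against 4.56 at the low dose, and Aucklandiae Radix high had 7.36 CPM (6.26 to 8.59) against 3.51. In both extracts the high and low intervals did not overlap. SPHK2 (chromosome 19, 48619291 to 48630717, plus strand), the kinase found in nucleus and mitochondria as well as cytosol, had 20.7, 18.6 and 19.8 CPM in vehicle. It was at 29.7 CPM in Polygalae Radix high and 29.1 CPM in Aucklandiae Radix high, the highest values over all libraries. Over the low doses of the replicated extracts, SPHK2 in set 10 minus set 9 was 0.07 ± 0.0993 (edgeR adjusted p = 0.604, with 24.5% of all genes called). Over 52 libraries it was higher by 0.22 ± 0.0549 (adjusted p = 0.00195), where 28.4% of all genes were called. That contrast cannot separate extracts from sets. SPHK1 overlaps PRPSAP1 and SPHK2 overlaps RPL18 and DBP on the opposite strand, and the strand setting of the counting is not given, so reads of these neighbours may be included.

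The enzymes that remove sphingosine 1-phosphate apart from SGPP2 varied by small amounts. SGPP1 (chromosome 14, 63684214 to 63728039, minus strand) had 39.6, 39.1 and 36.4 CPM in vehicle and 32.9 to 40.7 CPM over the 52 libraries. Its SD on the log2 scale was 0.0443 between the 19 group means and 0.062 within groups, whereas SGPP2 had 0.365 between and 0.167 within. SGPL1 (chromosome 10, 70815961 to 70881173, plus strand) had 97, 99.8 and 101.5 CPM in vehicle, and 38 of 55 extract libraries lay below that range, by small amounts. Over the low doses, SGPL1 in set 10 minus set 9 was called lower in both fits, where 24.5% and 28.4% of all genes were called. On leaving out 1 library it ranged from -0.17 to -0.0981, with edgeR adjusted p of 0.00255 to 0.0799. Extracts and sets cannot be told apart in that contrast. At the high dose SGPL1 was at 103.7 and 106.8 CPM in Soshiho-tang and at 93.3, 95.4 and 93.6 CPM in Yijin-tang, without overlap. Yijin-tang minus Soshiho-tang was -0.16 ± 0.0695 (edgeR adjusted p = 0.428), and over 52 libraries SGPL1 was lower in Yijin-tang by -0.16 ± 0.0432 (adjusted p = 0.0116).

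In the ceramide route, DEGS1 (chromosome 1, 224175756 to 224193441, plus strand) moved at the Soshiho-tang high dose. It had 93.0, 95.1 and 87.0 CPM in vehicle, 90.3 and 94.2 CPM at the Soshiho-tang low dose and 76.3 and 83.0 CPM at the high dose, below every other library. The change of high against low was -0.21 ± 0.102 (adjusted p = 0.551), and over 52 libraries DEGS1 fell by 0.21 ± 0.051 (adjusted p = 0.0036). Its level in Yijin-tang minus that in Soshiho-tang at the high dose was 0.15 ± 0.094 (adjusted p = 0.831; 0.0359 over 52 libraries). CERS2 (chromosome 1, 150960583 to 150975004, minus strand) had 189, 186 and 186 CPM in vehicle, and 46 of 55 extract libraries lay below that range, down to 165 CPM in Soshiho-tang high. SPTLC1 (chromosome 9, 92000087 to 92115384, minus strand) had 50.8, 50.5 and 53.4 CPM in vehicle and 47.1 to 55.2 CPM over the 52 libraries, the smallest SD between group means (0.0288) of the 10 genes. Its 1 large departure outside the libraries standing apart was Polygalae Radix, with 49.3, 43.2 and 28.7 CPM from the low to the high dose, where the intervals of high (26.8 to 30.8) and low (46.4 to 52.2) did not overlap. UGCG (chromosome 9, 111896766 to 111935369, plus strand) had 21.7, 21.1 and 22.4 CPM in vehicle. Of 55 extract libraries, 37 lay below that range, down to 15.5 CPM in Zizyphi Semen medium, and 9 lay above it. Polygalae Radix high had 30.3 CPM (28.3 to 32.4), against 19.5 CPM (17.7 to 21.4) at its low dose. CERS2 overlaps SETDB1 on the opposite strand, so part of its reads may belong to that gene. SPTLC1 overlaps HSPE1P22, MTATP6P29 and others on the opposite strand, with the same limit.

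In Polygalae Radix, 7 of 10 members had high and low dose intervals that did not overlap, against 66.8% of the 13741 genes with at least 1 CPM in vehicle: FA2H, SPTLC1 and, by a small amount, DEGS1 (86.8 against 94.9 CPM) were lower at the high dose, and SPHK1, SPHK2, UGCG and CERS2 (206 against 184 CPM) higher. In Aucklandiae Radix 5 of 10 members did so, against 36.2% of those genes. They were FA2H, SPHK1, DEGS1 (100.6 against 91.3 CPM), UGCG (23.4 against 19.4 CPM) and CERS2 (203 against 182 CPM), all higher at the high dose. With so many genes apart, these counts are no result about the members. DEGS1 in Polygalae Radix had 2440 counts in a total of 22.681 M at the high dose and 2124 in 22.696 M at the low. Its lower CPM at the high dose thus depends on the TMM factor, which the intervals take as fixed. The overlap of the intervals of SGPP1 (1070 against 827 counts), SGPL1 (2723 against 2025) and SGPP2 (104 against 60) depends on that factor too. Of the 13741 genes, 16.1% were at least 2-fold from their own low dose in Polygalae Radix high and 2.9% in Aucklandiae Radix high, and 18.9% and 3.79% were at least 2-fold from vehicle. The A549 marker sum was 3028 CPM in Polygalae Radix high and 10400 CPM in Aucklandiae Radix high, under the vehicle range of 17200 to 17560 CPM. The leukocyte sum was 5.406 and 35.68 CPM, the fibroblast sum 17.68 and 25.24 CPM, the keratinocyte sum 35.82 and 27.63 CPM, and the myelinating glia sum 190.2 and 115.8 CPM. The part of these in the members' values was not tested, and each value is from 1 library.

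**Figure D5:**
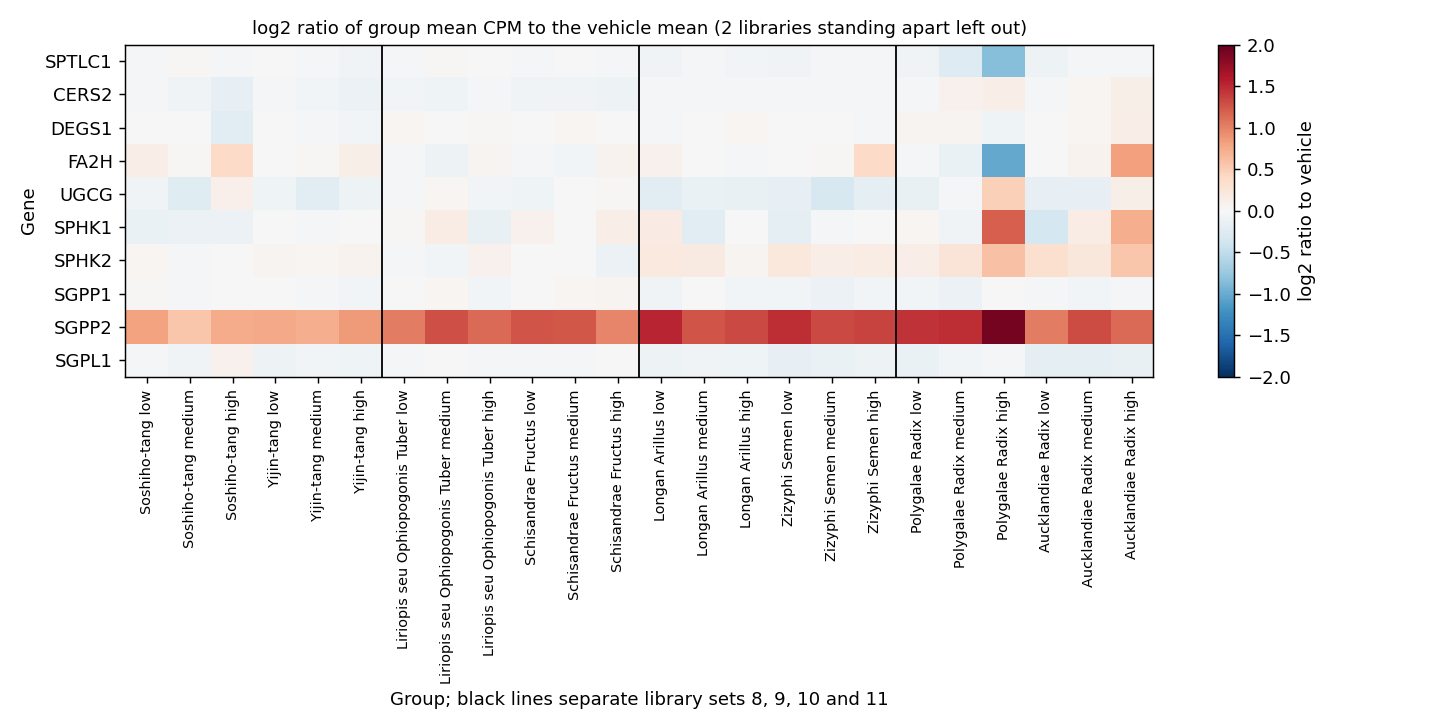
Log2 ratio of the group mean CPM to the vehicle mean for the 10 members (rows) in 24 extract groups (columns, by library set), without the 2 libraries standing apart; red is higher and blue lower than vehicle. SGPP2 is higher in all groups, from 0.55 in Soshiho-tang medium, while FA2H differs at 4 high doses and most other cells stay near 0 outside Polygalae Radix high.

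Few members passed the test between doses. Over the 5 replicated extracts other than Zizyphi Semen, 2 of 50 tests of high against low were called, SGPP1 (-0.38 ± 0.127, adjusted p = 0.0337) and SPHK1 (-0.71 ± 0.213, adjusted p = 0.0205), both in Longan Arillus, where 18.8% of all genes were called. Without the 2 libraries these became 0.02 ± 0.0565 (adjusted p = 0.932) and -0.16 ± 0.132 (adjusted p = 0.702), and 0.0878% of genes were called. Both calls thus rest on Longan Arillus low replicate 3. Over 52 libraries, 2 of 50 tests were again called, but for other genes: FA2H, which rose, and DEGS1, which fell, both in Soshiho-tang, where 9.51% of all genes were called (1.58% over 54 libraries). In Yijin-tang, Liriopis seu Ophiopogonis Tuber and Schisandrae Fructus, 0 of 10 members were called by edgeR in either fit, and 0 had an unadjusted p below 0.05 over 54 libraries; DESeq2 also called 0. The share of all genes called there was 0.146%, 0% and 0.00561%, and over 52 libraries 0.987%, 0% and 1.54%. The median size of the members' log2 fold change over 52 libraries was 0.0896 in Soshiho-tang, against 0.136 for all genes, and 0.0492 in Yijin-tang, against 0.0758. All genes were not matched to the members for level, so no lesser response of the members is read from this.

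Medium against low gave 1 call of 50, SPHK1 in Longan Arillus, with 18% of all genes called there, against 0.00561% in Soshiho-tang and 0% in the other 3 extracts. Over 52 libraries edgeR called 0 members, with 0.00549% of all genes called in Yijin-tang and 0% in the other 4 extracts, while DESeq2 called 2 over 54 libraries. Between the 2 extracts of a set at the high dose, 0 of 20 tests were called by edgeR over 54 libraries (background 1.19% in set 8 and 0.0561% in set 9), with 3 at an unadjusted p below 0.05, and DESeq2 called 1, FA2H. Over 52 libraries 3 were called, FA2H, SGPL1 and DEGS1, all between Yijin-tang and Soshiho-tang, where 8.37% of all genes were called (2.97% in set 9). The test of a different dose change between the extracts of sets 8 and 9 called 0 of 20 over 54 libraries (background 0.286% and 0%), with 0 at an unadjusted p below 0.05, and 0 over 52 libraries (2.58% and 0.318%) and with DESeq2.

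Beyond the members, 63 genes of the wider pathway were followed, from 6 lists taken from textbook biochemistry, of which 55 were expressed enough to be tested. Over 54 libraries 8 of 55 were called between high and low dose, all in Longan Arillus, where 18.8% of all genes were called. Of these, 3 were higher at the high dose, ALDH3A2 and B3GNT5 among them, and 5 were lower, SPTSSA, DEGS2, PLPP2, ACER3 and GLTP. ACER3, an alkaline ceramidase, was at 69.9 to 77.46 CPM at the high and 72.24 to 182.3 CPM at the low dose. None of the 8 was called in Longan Arillus over 52 libraries. The calls in that fit lay in other extracts and were chosen for naming after their values were seen. In Soshiho-tang, 4 of 55 were called, with a background of 9.51% of all genes: ASAH1, the lysosomal acid ceramidase, rose by 0.27 ± 0.0563 (adjusted p = 0.000896), ACER2, a Golgi ceramidase, by 0.66 ± 0.206 (adjusted p = 0.0311) and ARSA, the lysosomal sulfatase of sulfatides, by 0.33 ± 0.102 (adjusted p = 0.0291), while GLA, the lysosomal alpha-galactosidase, fell by 0.32 ± 0.0596 (adjusted p = 0.00012). In CPM, ASAH1 was at 63.91 to 71.07 at the high and 55.69 to 56.61 at the low dose, and GLA at 71.4 to 72.46 and 88.36 to 91.62, without overlap. In Schisandrae Fructus, 2 of 55 were called higher and 1 lower, with a background of 1.54% of all genes. There ST3GAL5, which makes the ganglioside GM3, rose (76.33 to 77.7 against 63.31 to 68.04 CPM), as did PSAP, the precursor of the saposins (652.3 to 693 against 593.3 to 602.3 CPM), and B4GALNT1, a ganglioside synthase, fell (94.41 to 105 against 107.1 to 117.6 CPM). Of the 55, 2 were called in Yijin-tang and 1 in Zizyphi Semen, with backgrounds of 0.987% and 1.15%. SPTSSA, a small subunit of serine palmitoyltransferase, fell in Yijin-tang by 0.19 ± 0.0453 (adjusted p = 0.0152) and in Zizyphi Semen by 0.26 ± 0.0448 (adjusted p = 0.000376), and SMPD3, a neutral sphingomyelinase, fell in Yijin-tang by 1.33 ± 0.339 (adjusted p = 0.0349) at 0.12 to 0.604 CPM at the high and 0.678 to 1.04 CPM at the low dose. Over 54 libraries none of these had an adjusted p below 0.05 in its extract. The 8 pathway genes left untested for low counts were SPTLC3, SPTSSB, CERS3, S1PR1, S1PR4, ACER1, UGT8 and ST8SIA1. UGT8, which adds galactose to 2-hydroxy ceramide in myelin, had no more than 6 counts in any library.

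By Pearson correlation of the group mean log2 CPM over the 25 groups, among 13883 genes with a mean of at least 1 CPM, the genes most like FA2H included TRIOBP (r = 0.945), COL6A2 (0.939), ANPEP (0.936) and ATP2A3 (0.923). The group means share libraries and library sets, so the values describe likeness only. Over the 19 replicated groups without the 2 libraries, r was 0.751 for TRIOBP and 0.529 for ANPEP, an aminopeptidase, so part of the likeness came from the single libraries of set 11. The genes most like SGPP2 were PPP1R10 (r = 0.871), ETAA1 (0.867), FHIP2B (0.865), ENSG00000274292 (0.848) and PLEKHG2 (0.836). Over the 19 replicated groups without the 2 libraries they had r of 0.803, 0.844, 0.811, 0.846 and 0.697.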

How the data were processed

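The file that the authors deposited holds expected counts by gene, made from the reads with RSEM per the submitters' processing notes and not scaled for depth or length, of which 10.485% were not whole numbers. The submitters' processing notes list the build hg38 (GRCh38), the counter RSEM 1.3.3, the aligner STAR 2.7.3a, and Trim Galore 0.6.5 and FastQC 0.11.9. For the annotation release and strand setting the sources used here give nothing. Of 60675 identifiers, 57055 were in GENCODE 29 (GRCh38), from which coordinates and transcript lengths were taken.

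Expected counts were rounded. The 54 libraries of the 19 groups with at least 2 libraries were fitted together with edgeR 4.0.16 in R 4.3.3 (quasi-likelihood F test, robust, TMM factors, filterByExpr by group), 17826 genes tested, and again without 2 libraries standing apart (52 libraries, 18228 genes). All adjusted p-values are Benjamini-Hochberg values over all genes of a contrast from this test, called below 0.05. Errors of log2 fold changes are SE. Counts of replicates differed beyond sampling noise (chi-square over its degrees of freedom was at least 1.822), but the labels do not say that they came from different cultures, and p-values then measure only library-to-library spread that may be technical. The members, gene lists and the pair of libraries to leave out were chosen with earlier results of these data known. Contrasts of high against medium dose and of low doses between sets were added after seeing the data. Pathway genes named were those called between high and low dose, up to 4 per list by size. Genes named as most alike were the 5 with the highest correlation. Results of some genes that these rules name are not reported here. The scripts were tested on simulated data. In simulated counts for Soshiho-tang high against low, 32.31% of 65 genes changed 1.5-fold were called in the right direction. A gene not called may thus still have changed. Alternatives were DESeq2 1.42.0 and its size factors, limma 3.58.1 voom with quality weights, no low-count filter, a replicate block, the libraries of 1 set alone, and leaving out each library.

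Same-numbered replicates of an extract did not deviate together throughout (correlations of -0.287 to 0.472), so replicate numbers were not used as pairs. The exception was Zizyphi Semen medium against low, where all 3 correlations were 0.305 to 0.472; no count of called members here includes that contrast.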

Additional observations from a re-analysis of the deposited data

Results flagged for a closer look

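FA2H values at the high and low dose lay in opposite order in the 2 extracts of set 10: every Zizyphi Semen high library lay above its low libraries (mean 27.36 CPM at the high dose), and every Longan Arillus high library lay below its low libraries (mean 20.74 CPM at the high dose). The Longan Arillus difference was not called by edgeR in either fit. Its highest low library, replicate 3 at 24.83 CPM, is 1 of the 2 standing apart. The log2 difference of the 2 dose changes was 0.547 ± 0.0962 in edgeR, and 0.498 ± 0.0941 without the 2 libraries standing apart; this contrast includes the one that chose FA2H and is a description. In set 11, FA2H was lower than its low dose at Polygalae Radix high (10.39 CPM) and higher at Aucklandiae Radix high (37.29 CPM), and DEGS1 likewise (86.78 and 100.6 CPM), with exact intervals of high and low doses that did not overlap. The DEGS1 fall in Polygalae Radix depends on the TMM factor. Its unscaled counts were 2440 at the high and 2124 at the low dose, in library totals of 22.681 and 22.696 M. The set 11 differences were not tested, having 1 library per dose. The gap check for a single outlying library needs groups of at least 4 libraries and was not applied.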

How the results depend on the processing

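The count of 2 members called between high and low dose became 1 with no low-count filter, 1 with the replicate block, 0 with the libraries of 1 set alone, and 0 to 7 on leaving out 1 library; it was 7 without Longan Arillus low replicate 1, 5 without replicate 2, 1 without replicate 3, and 0 without any 1 of the Longan Arillus high libraries. It stayed 2 without both libraries standing apart, but with no gene in common. For medium against low, 1 became 0 without both, 2 with DESeq2, 0 with voom, 0 with 1 set alone, and 1 to 8 on leaving out 1 library (8 and 6 without Longan Arillus low replicate 1 or 2, 5 without Soshiho-tang medium replicate 2, 2 without replicate 3 of either group). Between extracts at the high dose, 0 became 3 without both, 1 with DESeq2 and 3 with voom, and 0 to 0 on leaving out 1 library. The 8 pathway genes became 4 with no filter, 2 with 1 set alone and 0 to 26 on leaving out 1 library (26 and 25 without Longan Arillus low replicate 1 or 2, 2 without replicate 3, 0 and 5 without high replicate 1 or 2). FA2H in Zizyphi Semen ranged from 0.355 to 0.421, and the mean of SGPP2 against vehicle from 0.987 to 1.09, on leaving out 1 library.

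In Longan Arillus high against low, SGPP1 changed sign without both libraries (0.0219) or without low replicate 3, and ranged from -0.562 to 0.022 on leaving out 1 library. ACER3 did so too (0.0034, and 0.00996 with voom), with a range of -0.79 to 0.00372. Over low doses, SPHK2 in set 10 minus set 8 changed sign without Soshiho-tang low replicate 2 (-0.00218) or Longan Arillus low replicate 1 or 2 (-0.0523, -0.0836), with a range of -0.0836 to 0.157. In set 10 minus set 9, SGPP2 did so without Longan Arillus low replicate 1 (range -0.00575 to 0.356) and SPHK2 without replicate 2 (range -0.0232 to 0.219). Apart from what the leaving out of libraries shows, the cause was not tested. Depth limits SGPP2, with 9 to 104 counts per library.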
